A study of Mus musculus with 50 samples.

Results

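The expression of 9 regulators and markers of axon growth and regeneration, Klf4, Klf6, Klf7, Klf9, Sox11, Atf3, Stat3, Gap43 and Sprr1a, was followed in mouse motor neurons that matured in the spinal cord or in culture. They were taken by symbol from the 55385 genes listed for every RNA library, and each of the 9 was found. RNA was measured in 28 libraries and accessible chromatin, by ATAC-seq, in 22. In tissue, all mice were C57BL/6. At E10.5 whole cells that express a green fluorescent protein from an HB9 promoter transgene (HB9-GFP, a motor neuron reporter) were sorted and whole cell RNA was read, in 3 libraries. The later ages were read from nuclei isolated from the cords of Chat-Cre;SUN1-GFP-3xMYC mice, in which cells that have expressed the cholinergic enzyme Chat carry a tagged nuclear envelope protein, with nuclear RNA in 2 libraries at E13.5, 3 at P4, 2 at P13, 3 at P21, 3 at P56 and 2 at 2 years. Each tissue library pools several animals, and the Chat-Cre driver also marks other cholinergic neurons and some neurons that are not cholinergic. The study's deconvolution of its own P56 RNA found no significant share of non-cholinergic cells. It assigned most of the expression to skeletal motor neurons and some to visceral motor neurons. In culture, motor neurons were made from a stem cell line with the same Chat-Cre;SUN1-GFP-3xMYC alleles. Nuclear RNA was read before plating in embryoid bodies (DIV0, 2 libraries), and after 7 days (DIV7, 2 libraries) or 28 days (DIV28, 3 libraries) on astrocyte-enriched cortical glia in medium with the neurotrophic factors GDNF, BDNF, CNTF and IGF. In 3 further DIV28 libraries the sodium channel blocker tetrodotoxin (TTX, 1 µM) was present for the whole co-culture. ATAC-seq has 2 libraries in each of the same 11 groups.

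Axons of embryonic neurons grow readily, and neurons of the central nervous system lose much of this capacity as they mature. Krüppel-like factors are zinc finger transcription factors that act on this capacity in opposite ways in cultured central neurons, where Klf4 and Klf9 restrain neurite growth and Klf6 and Klf7 promote it. Sox11 is a transcription factor of immature neurons. Atf3, Stat3, Gap43 and Sprr1a are known for their rise in peripheral neurons, motor neurons among them, after axon injury: Atf3 is a stress-induced transcription factor, Stat3 carries signals from gp130 cytokine receptors to the nucleus, Gap43 is a growth cone membrane protein and Sprr1a is a small protein best known from the epidermis.

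One label is in conflict: a library whose title reads DIV0 replicate 3 is used here as DIV28 replicate 3, since its deposited table is named as DIV28 and a legend in the study's supplement counts 2 DIV0 and 3 DIV28 libraries. Across genes its log-scaled CPM correlated at 0.954 with the mean of the other DIV28 libraries, at 0.954 with that of DIV28 with TTX and at 0.751 with that of DIV0, so this value does not tell untreated DIV28 from TTX, and each DIV28 result below is also given without it where it moved a call. Total counts ran from 2704642 in DIV7 replicate 1 to 21823492 in DIV28 replicate 2, the deepest library, whose TTX partner is the deepest of its own group. All 7 motor neuron markers had counts in every group, with summed normalized counts of 1562 to 2912 at E13.5, 3077 to 4075 in tissue from P13 to 2 years and 5360 to 9625 in the cultures. From DIV0 to DIV28, 1 of the 7 was called higher and 4 lower, where 11.5% of all genes were called higher and 7.45% lower. The median log2 fold change of the 7 was -2.15. Prph, an intermediate filament protein, made up most of the later sum, with 595 and 555 at DIV0 and 6238, 7482 and 3709 at DIV28, while Chat was at 2260 and 1541 and then at 532, 370 and 357, and Isl2 and Mnx1, motor neuron transcription factors, lay between 184 and 306 at DIV0 and at or below 42.3 at DIV28. Markers of other cells were also present. The study reports that its RNA nuclei were less pure at E13.5 and P4, with some contamination from vessels, than from P13 onward. Nuclei for ATAC-seq were sorted, and the study reports high purity for them at all ages. The 6 endothelial markers summed to 5 to 19 at E10.5, 13255 and 24988 at E13.5, 5654 to 7726 at P4, 350 and 523 at P13 and at most 79 from P21 onward. All 7 erythroid markers had counts at E13.5, where they summed to 17229 and 19940, and the 5 pericyte markers summed to 2328 and 2417 at E13.5 and to 3383 to 5003 at P4. The 5 oligodendrocyte markers summed to 171 and 172 at E13.5, 1919 to 2490 at P4, 10567 and 10714 at P13, 5949 to 8135 at P21 and 1433 to 3155 later, and the 6 astrocyte markers to 328 and 517 at E13.5, 2527 to 3235 at P4 and 1243 to 1599 at P21. The 6 progenitor markers summed to 5830 to 10480 at E10.5, 6191 and 11810 at E13.5, 1602 to 1861 at P4 and 32 to 87 at P21, and in culture to 2106 and 2454 at DIV0, 521 and 948 at DIV7 and 28 to 71 at DIV28. In these bulk samples, fewer cells of a type and less RNA per cell cannot be told apart.

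In tissue, the set came apart into genes called lower with age, 1 gene called higher and genes not called between E13.5 and P21. A normalized count below is the expected read count of a gene divided by the library's median-of-ratios size factor over all 28 libraries. A gene was called changed when its unadjusted p was under 0.001 and its change at least 2-fold in edgeR's quasi-likelihood test across all genes, and Benjamini-Hochberg adjusted p-values are given beside. Between E13.5 and P21, both of nuclear RNA, 6 of the 8 members that passed the filter on low counts were called, 1 higher and 5 lower. The same rule called 56.1% of all 15030 genes tested in this comparison, 29.8% as higher and 26.3% as lower. The median log2 fold change was -1.83 over the 8 members and 0.15 over all genes. Sprr1a had at most 1 count in any tissue library and was not tested there. Klf4, Klf9 and Atf3 passed the filter only through ages where each was high, which favors the direction in which each was called.

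Klf9, a restraint on neurite growth and a target of thyroid and glucocorticoid hormones, was the gene that rose. Its normalized counts were 19.1, 13.8 and 11.4 at E10.5, 11.1 and 19.3 at E13.5, 92.0, 97.1 and 102 at P4, and 180 and 177 at P13. They stayed between 162 and 197 at P21 and P56 and were 133 and 135 at 2 years. Every library from P4 onward lay above every embryonic one. The rise was 3.66 ± 0.24 on the log2 scale (SE, adjusted p = 3.03e-10) from E13.5 to P21, of which 2.74 ± 0.24 (adjusted p = 3.01e-08) fell between E13.5 and P4. The oligodendrocyte and astrocyte markers rose between the same ages, and their part in the Klf9 signal was not tested.

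Klf4, the other restraining factor, ran the opposite way. Its counts were 21.4, 9.68 and 19.8 at E10.5, 206 and 317 at E13.5, 155, 121 and 104 at P4, 7.72 and 7.43 at P13, and 1.4, 2.81 and 9.67 at P21. It stayed at or below 4.16 in every later library. The libraries of E13.5 and P4 were thus high and did not overlap with those of any other age. Klf4 rose by 3.80 ± 0.36 (adjusted p = 5.69e-08) from E10.5 to E13.5 and fell by 3.95 ± 0.45 (adjusted p = 5.33e-06) from P4 to P13, and its log2 fold change from E13.5 to P21 was -5.64 ± 0.46 (adjusted p = 5.75e-09). The endothelial markers given above were high in the same 5 libraries. Across the 28 libraries the genes whose log-scaled levels were most like that of Klf4 were Fzd6, a Wnt receptor (r = 0.95), Edn1, which encodes the vessel peptide endothelin (r = 0.939), and Lamc1, a basement membrane laminin chain (r = 0.92). The reported purity of the RNA nuclei also rose between P4 and P13. The part of vessel cells in the Klf4 signal was not tested.

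**Figure D1:**
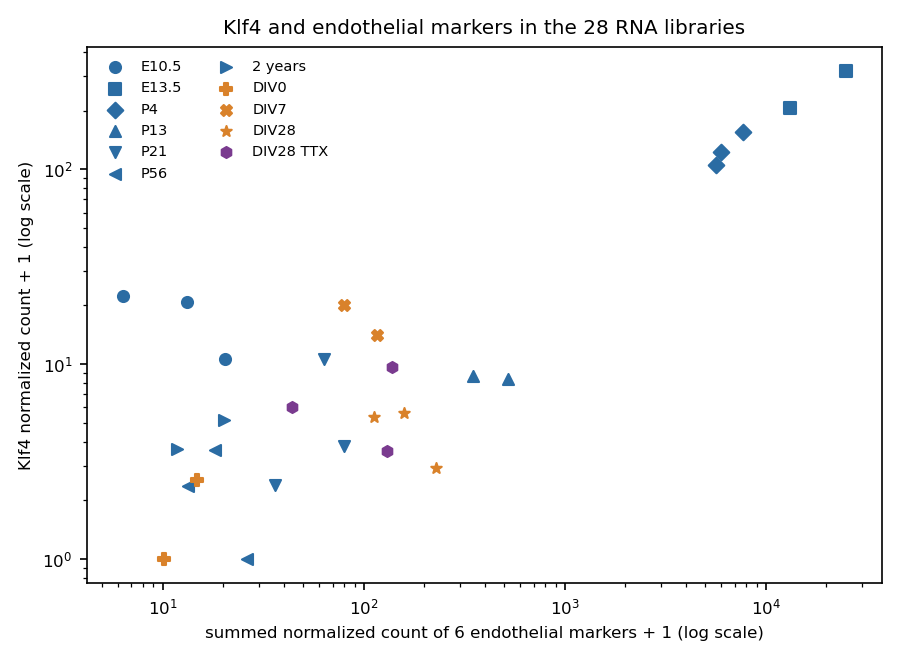
Normalized count of Klf4 (y axis, log scale, plus 1) against the summed normalized count of 6 endothelial markers (x axis, log scale, plus 1), 1 point per RNA library, with blue for tissue, orange for culture and purple for culture with TTX. The 2 E13.5 and 3 P4 libraries stand apart at the upper right, with endothelial sums of 5654 to 24988.

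Klf6 and Klf7, the growth-promoting pair of Krüppel-like factors, differed from each other. Klf6 was at 309 and 342 at E13.5, 322, 276 and 258 at P4, and 117 and 107 at P13, and it stayed between 82.5 and 133 thereafter, so that no library from P13 onward reached the level of an E13.5 or P4 library. Its log2 fold change from E13.5 to P21 was -1.50 ± 0.21 (adjusted p = 5.12e-06), and the step from P4 to P13 was -1.26 ± 0.22 (adjusted p = 0.000318). The reported purity of the RNA nuclei rose across that step too, and its part in the fall of Klf6 was not tested. Klf7 was at 596, 346 and 654 at E10.5, 380 and 391 at E13.5, 420, 513 and 442 at P4, 256 and 267 at P13, and 292 to 346 at P21. The P4 libraries lay above those of E13.5 and P13, with -0.72 ± 0.21 from P4 to P13 (adjusted p = 0.0158), short of the limits. Klf7 was not called in any of the 6 steps between ages, and its log2 fold change from E13.5 to P21 was -0.12 ± 0.21 (adjusted p = 0.602).

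Sox11 fell in 2 called steps. Its counts were 8998, 6499 and 11114 at E10.5, 1661 and 1561 at E13.5, 551, 586 and 549 at P4, and 257 and 340 at P13, with 215 to 371 at all later ages. None of the E10.5, E13.5, P4 and later groups overlapped. The log2 fold change was -2.62 ± 0.22 (adjusted p = 1.63e-08) from E10.5 to E13.5, across which the RNA source also changed from whole cells to nuclei, and -1.37 ± 0.20 (adjusted p = 1.1e-05) from E13.5 to P4. From E13.5 to P21 it was -2.15 ± 0.20 (adjusted p = 3.55e-08). From E10.5 to E13.5, 4 of the 6 progenitor markers were called lower and 0 higher (44.1% of all genes called), but their sums overlapped. From E13.5 to P21, 4 were called lower and 1 higher (26.3% and 29.8% of all genes), and the sums fell. The part of progenitors in the fall of Sox11 was not tested.

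Gap43 fell later and more gradually. Its counts were 583, 244 and 1481 at E10.5, 744 and 482 at E13.5, 319, 361 and 339 at P4, 119 and 145 at P13, and 30.8, 53.4 and 51.1 at P21. From P21 to 2 years all 8 libraries lay between 30.8 and 59.2. The log2 fold change from E13.5 to P21 was -3.61 ± 0.51 (adjusted p = 5.08e-06). The single steps of -1.28 ± 0.48 from P4 to P13 (adjusted p = 0.048) and -1.63 ± 0.53 from P13 to P21 (adjusted p = 0.0361) missed the unadjusted threshold, although the libraries of the 3 ages did not overlap.

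Among the injury-associated genes, Atf3 was low throughout in tissue. It was at 6.87, 5.53 and 8.39 at E10.5, 46.2 and 59.6 at E13.5, 20.2, 7.64 and 9.98 at P4, and at most 4.14 in every library from P13 to P56. It had 10.8 and 4.16 at 2 years, which were 8 counts in each library, against 1 count over the 3 P56 libraries, and was not called in that step (adjusted p = 0.115). From E13.5 to P21 it fell by 3.84 ± 0.53 on the log2 scale (adjusted p = 3.38e-06). Stat3 was at 159, 96.8 and 271 at E10.5, 485 and 482 at E13.5, and 256 to 422 from P4 to 2 years. Its rise from E10.5 to E13.5 was 1.3 ± 0.27 (adjusted p = 0.000366), a call lost without E10.5 replicate 1 (1.24) or either E13.5 library (adjusted p = 0.00236 to 0.00263), and it was not called in any later step, with -0.28 ± 0.27 from E13.5 to P21. Klf4, Atf3 and Stat3 were all higher at E13.5 than at E10.5, the step across which the endothelial and erythroid markers also rose and the RNA source changed.

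Taking P4 as the start in tissue, an alternative chosen after the data were seen, left 3 of 8 members called by P21, with 0 higher and 3 lower. The rule then called 17% of all 15030 genes, 880 as higher and 1681 as lower. These were Klf4 (-4.73), Klf6 (-1.46) and Gap43 (-2.91). From P4 the log2 fold change was 0.92 for Klf9, -0.79 for Sox11 and -1.92 for Atf3, none of which was called. By step, the members called by edgeR were 4 of 8 from E10.5 to E13.5 (44.1% of all genes), 3 of 8 from E13.5 to P4 (42.7%), 2 of 8 from P4 to P13, both lower (13.3%, and 7.54% as lower), and 0 of 8 from P13 to P21 (7.3%). In the steps to P56 (0.173%) and to 2 years (0.685%) it was again 0 of 8. In these last 3 steps DESeq2 also called 0, and 1, 2 and 1 members had an unadjusted p under 0.05.

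**Figure D2:**
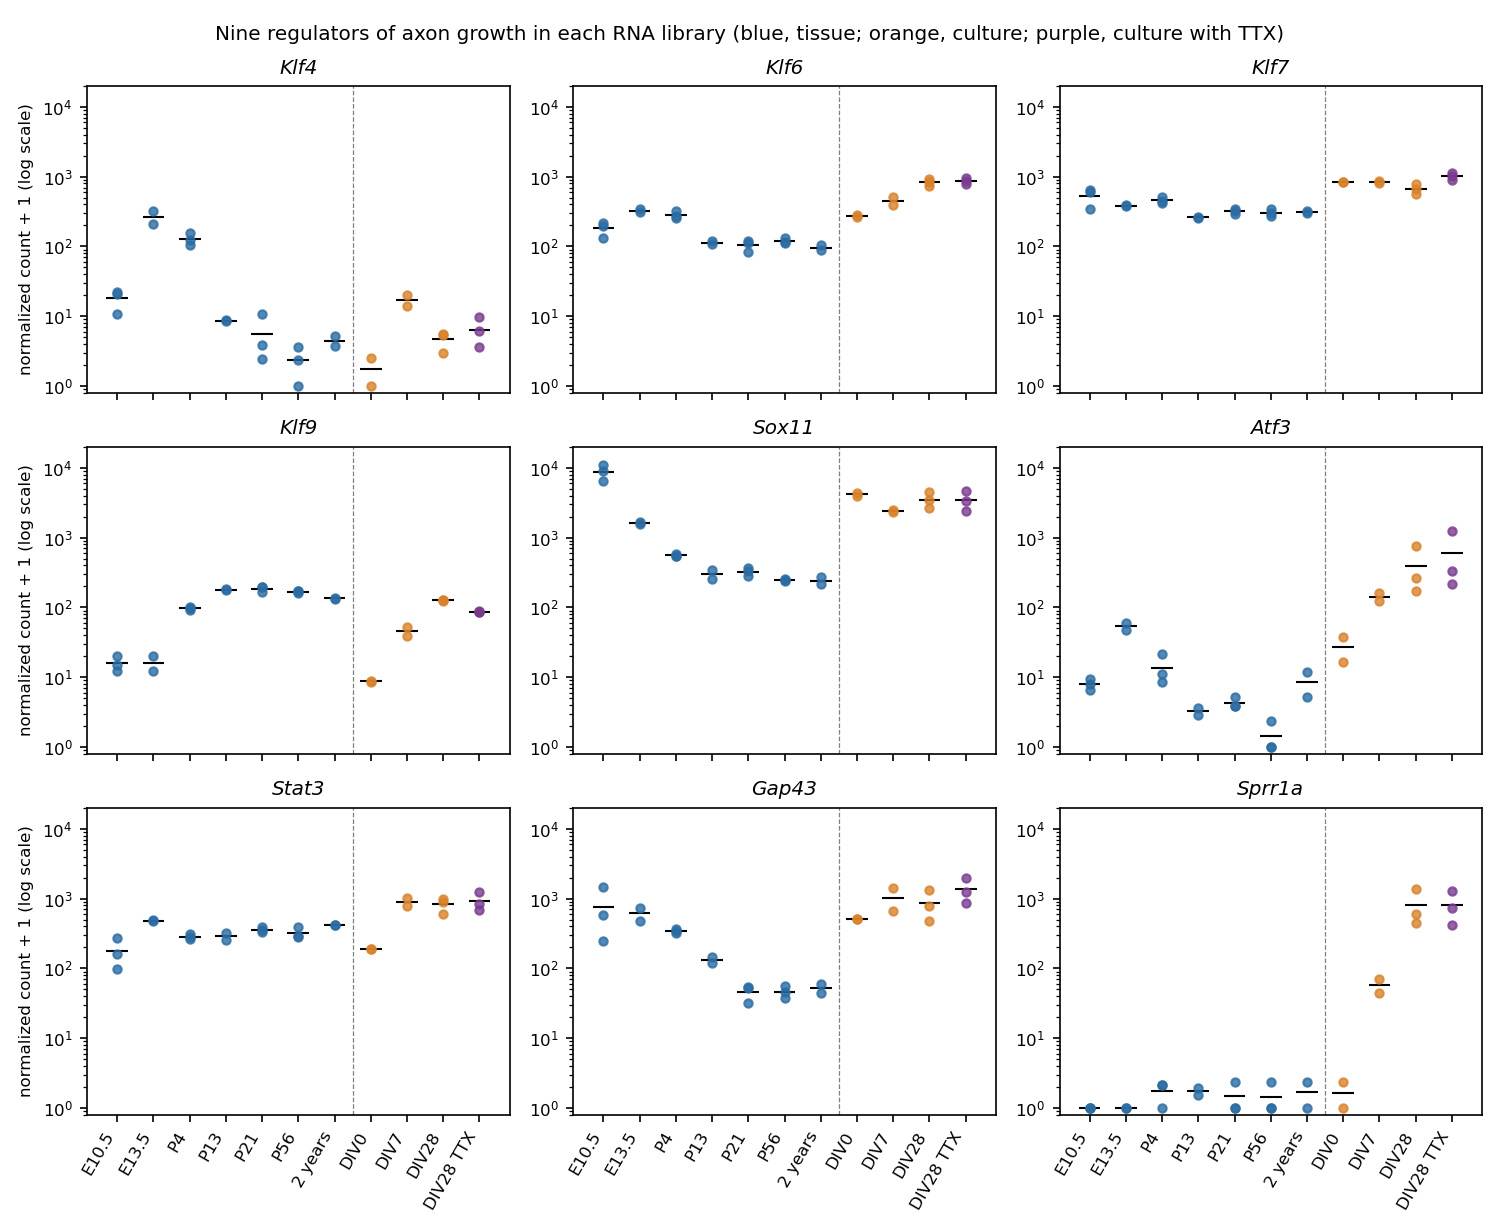
Normalized count plus 1 (y axis, log scale) of each of the 9 genes in each RNA library (points) by group (x axis), with the group mean as a black bar, blue for tissue, orange for culture and purple for culture with TTX. Klf4, Klf6, Sox11, Atf3 and Gap43 were lower at P21 than at E13.5 in tissue and Klf9 was higher, while Sprr1a had at most 1 count in any tissue library and 446 to 1360 normalized counts at DIV28.

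In culture no member was called lower. Between DIV0 and DIV28, 4 of the 8 members tested were called, all of them higher, where the rule called 19.0% of all 12890 genes tested and 11.5% as higher. They were Klf6, Klf9, Stat3 and Sprr1a. The median log2 fold change was 1.90 over the 8 members and 0.06 over all genes. Klf4 had 1 count over both DIV0 libraries, 22 at DIV7 and 16 at DIV28, did not pass the filter on low counts and was not tested. Sprr1a and Klf9 passed it only through later groups, where they were high, which favors calls of a rise from DIV0. For Sprr1a no fall from DIV0 could have been called. By step, 3 of 8 members were called from DIV0 to DIV7 (Klf9, Stat3 and Sprr1a, all higher, where 11.2% of all genes were called and 8.36% as higher) and 2 of 8 from DIV7 to DIV28 (Klf9 and Sprr1a, both higher, where 7.7% were called and 3.62% as higher).

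Sprr1a had the largest log2 fold change from DIV0 to DIV28 of the members tested. It had 1 and 0 counts at DIV0, and its normalized counts were 43.1 and 68.9 at DIV7 and 1360, 593 and 446 at DIV28. The groups did not overlap. The ratio of DIV28 to DIV0 was 964, with an exact 95% interval of 173 to 38091 that covers counting error in the single DIV0 count only, and that of DIV7 to DIV0 was 83.0 (14.5 to 3319). The adjusted p was 3.13e-05 from DIV0 to DIV28, and the step from DIV7 to DIV28 was 3.84 ± 0.63 (adjusted p = 0.00248), a call that was lost without DIV7 replicate 1 (3.58, adjusted p = 0.0374). Sprr1a lies among related genes of its family, and the estimated counts may divide reads that match several of them.

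Klf9 rose in culture as it did in tissue. It was at 7.84 and 7.65 at DIV0, 50.6 and 38.3 at DIV7, and 125, 126 and 123 at DIV28. The rise from DIV0 to DIV28 was 4.02 ± 0.38 (adjusted p = 1.6e-05), with 2.5 ± 0.41 (adjusted p = 0.00112) reached by DIV7. The step from DIV7 to DIV28, 1.51 ± 0.31 (adjusted p = 0.00741), kept its size but missed the threshold when any 1 library was left out, the one titled DIV0 included (1.52, adjusted p = 0.019).

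Klf6 and Klf7 parted in culture too. Klf6 was at 280 and 260 at DIV0, 506 and 388 at DIV7, and 729, 927 and 831 at DIV28, 3 groups that did not overlap, and rose by 1.65 ± 0.24 from DIV0 to DIV28 (adjusted p = 0.000265). Klf7 was at 826 and 839 at DIV0, 818 and 867 at DIV7, and 663, 567 and 788 at DIV28, a log2 fold change of -0.28 ± 0.22 that was not called (adjusted p = 0.345). Stat3 was at 191 and 188 at DIV0, 791 and 1010 at DIV7, and 1000, 893 and 593 at DIV28. Its rise of 2.26 ± 0.36 (adjusted p = 0.00102) was complete by DIV7, and from DIV0 to DIV28 it was 2.16 ± 0.34 (adjusted p = 0.000468), which missed the threshold when either DIV0 library was left out (adjusted p = 0.0105 and 0.0103).

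Atf3 varied widely between the DIV28 cultures. Its counts were 36.6 and 15.3 at DIV0, 161 and 121 at DIV7, and 264, 751 and 171 at DIV28, so every DIV28 library lay above every earlier one and the deepest, replicate 2, lay far above the other two. The log2 fold change from DIV0 to DIV28 was 3.94 ± 0.91, with an unadjusted p of 0.00103 that just missed the threshold and an adjusted p of 0.00538. Without the deepest DIV28 and TTX pair, a choice made after the data were seen, it was 3.04 and passed (adjusted p = 0.00127), and it passed in DESeq2 too (3.92, adjusted p = 0.00022). It also passed without the library titled DIV0 (4.30, adjusted p = 0.00285), which brought the members called to 5. Gap43 was at 501 and 502 at DIV0, 671 and 1401 at DIV7, and 793, 1349 and 482 at DIV28, and Sox11 at 4020 and 4361, 2519 and 2320, and 2642, 3452 and 4474. Neither was called, with 0.84 ± 0.47 for Gap43 (adjusted p = 0.179) and -0.22 ± 0.30 for Sox11 (adjusted p = 0.588), and for both the DIV28 libraries overlapped with those of DIV0.

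Markers of other cells are given beside these rises. The 6 astrocyte markers summed to 370 and 494 at DIV0, before plating on glia. They summed to 615 and 1268 at DIV7 and to 219, 211 and 696 at DIV28, with Gjb6 at 0 at all 3 times. Slc1a2 made up most of these sums at DIV0, and others did not follow it. Gfap was at 3.92 and 0 at DIV0, 46.9 and 86.7 at DIV7 and 15.1, 6.46 and 106 at DIV28. Aqp4 was at 0 in both DIV0 libraries, 48.8 and 190 at DIV7 and 1.16, 5.81 and 51.1 at DIV28, and Aldh1l1 was at 2.61 and 0, 50.6 and 142, and 27.8, 37.8 and 24.8. Over the 5 tested the median log2 fold change was 4.95 from DIV0 to DIV7, with 1 called (11.2% of all genes). It was 4.30 from DIV0 to DIV28, with none called (19.0% of all genes). At DIV28 no erythroid marker but Alas2 had a count, 2 of 5 oligodendrocyte markers had counts (sum 32 to 49), the 6 endothelial markers summed to 112 to 229 with Cldn5 and Tek at 0, and the 5 fibroblast markers to 14 to 307. At DIV0 the endothelial sum was 9 and 14 and the fibroblast sum 7 and 11. One DIV7 library, replicate 1, had a fibroblast sum of 1439 against 117 in the other. The part of such cells in the members' rises was not tested.

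The question the set addresses, whether growth-associated genes are lost in culture as in tissue, was asked of the difference between the 2 courses. In 1 fit of the 25 libraries without TTX, the change from DIV0 to DIV28 minus the change from E13.5 to P21 was called for 6 of 9 members, all in the direction of culture, where the rule called 41.7% of all 15521 genes and 24.2% in that direction. For Klf6 the difference was 3.35 ± 0.29 (adjusted p = 3.77e-09), for Sox11 2.13 ± 0.30 (adjusted p = 3.26e-06), for Stat3 2.64 ± 0.40 (adjusted p = 7.33e-06), for Gap43 4.65 ± 0.73 (adjusted p = 1.23e-05) and for Atf3 7.99 ± 0.88 (adjusted p = 1.02e-07). The size for Atf3 rests on 7 counts over the 3 P21 libraries at the end of its course in tissue. Klf4 was also called (adjusted p = 3.62e-06), but its change in culture rests on 1 count at DIV0, so no size is given. For Klf9 the difference was 0.55 ± 0.41 (adjusted p = 0.245) and for Klf7 0.04 ± 0.28 (adjusted p = 0.907), with intervals of 2 SE on each side of -0.26 to 1.36 and -0.51 to 0.60. Sprr1a had 0 counts at E13.5 and gave no usable value.

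The start in tissue mattered for some members. With P4 in place of E13.5 the difference for Sox11 was 0.58 and was not called (adjusted p = 0.104), while Klf9 was now called, at 3.11 (adjusted p = 6.11e-07), since most of its rise in tissue came before P4. With E10.5 as the start, 4 of 9 members were called, all in the direction of culture. The rule then called 48.5% of all 15521 genes, 3584 of them in that direction. Stat3 (1.14, adjusted p = 0.0121) and Klf4 were not called. These comparisons share their DIV0, DIV28 and P21 libraries.

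**Figure D3:**
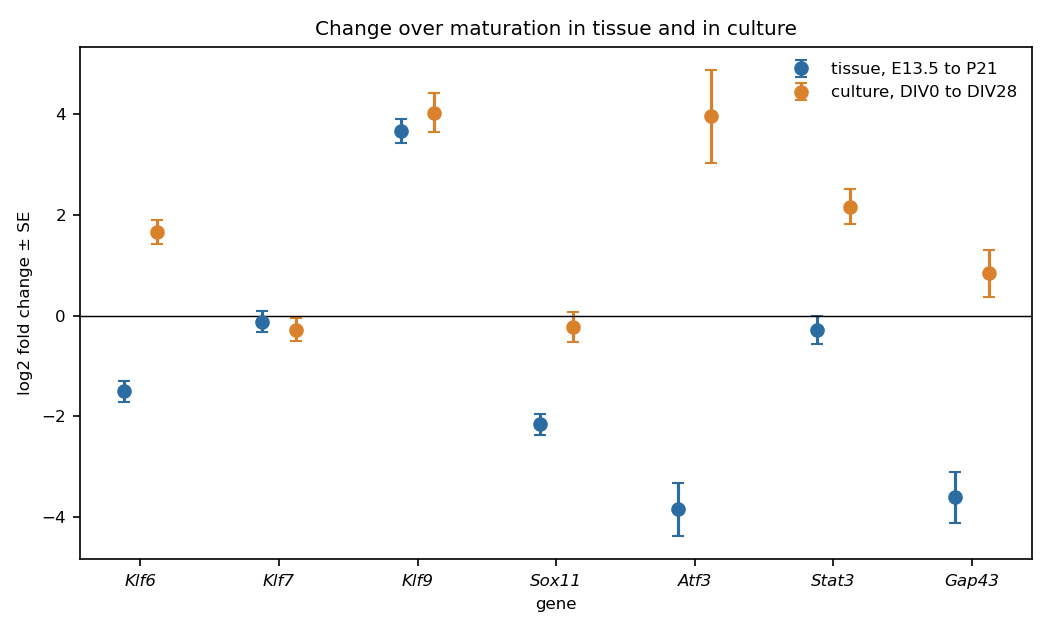
Log2 fold change with its SE (y axis) from E13.5 to P21 in tissue (blue) and from DIV0 to DIV28 in culture (orange) for the 7 genes tested in both fits (x axis). Klf9 rose in both, Klf7 was near 0 in both, and Klf6, Atf3 and Gap43 were below 0 in tissue and above 0 in culture.

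At the end of the courses, 7 of 9 members were higher at DIV28 than at P21 and none lower, against 26.3% of all genes called and 13.3% called higher. The log2 differences were 3.06 ± 0.19 for Klf6 (adjusted p = 6.21e-11), 1.13 ± 0.18 for Klf7 (adjusted p = 2.02e-05), 3.49 ± 0.21 for Sox11 (adjusted p = 3.1e-11), 6.95 ± 0.62 for Atf3 (adjusted p = 9.46e-09), 1.27 ± 0.25 for Stat3 (adjusted p = 0.000215) and 4.34 ± 0.52 for Gap43 (adjusted p = 4.96e-07). Sprr1a had 1 count over the 3 P21 libraries and 3621 over the 3 DIV28 libraries (adjusted p = 7.31e-10). It passed the filter only through culture groups where it was high, so it could only be called higher. Atf3 had 7 counts over the 3 P21 libraries and passed only through groups where it was high, which favors a call of higher. Klf9 was lower at DIV28 by less than the fold limit (-0.51 ± 0.18, adjusted p = 0.0226), with 123 to 126 normalized counts against 163 to 197 in tissue. Leaving out any 1 library, the one titled DIV0 included, left the count at 7.

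At the start, DIV0 and E13.5 also differed. Klf7 was 1.09 ± 0.22 higher at DIV0 (adjusted p = 0.000174) and Sox11 1.36 ± 0.23 higher (adjusted p = 3.66e-05), whereas Stat3 was lower (-1.37 ± 0.31, adjusted p = 0.000657) and Klf4 was at 1 count over 2 DIV0 libraries against 963 over 2 E13.5 libraries (adjusted p = 1.05e-08). These 4 of 9 members were called where 39.4% of all genes were. The Stat3 call was lost when any 1 of the 4 libraries was left out. The endothelial markers summed to 9 and 14 at DIV0 and to 13255 and 24988 at E13.5.

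Levels can be ordered between genes only per length. At P21 Stat3 led, with 184 ± 13.8 normalized counts per kilobase of effective length (SD, n = 3). Klf7 (55.2 ± 4.63), Klf9 (46.2 ± 4.58), Sox11 (40.2 ± 5.82), Gap43 (37.2 ± 10.3) and Klf6 (31.1 ± 5.55) followed, each within the SDs of its neighbor, and Atf3 (2.87 ± 0.68), Klf4 (1.9 ± 1.82) and Sprr1a were at the bottom. At DIV28 Sprr1a (1333 ± 819) and Gap43 (722 ± 363) led with wide and overlapping spreads, followed by Sox11 (435 ± 113), Stat3 (427 ± 109) and Atf3 (349 ± 275), which did not differ beyond their spread. Klf6 was at 249 ± 29.7, Klf7 at 116 ± 19.2, Klf9 at 31.3 ± 0.42 and Klf4 at 1.5 ± 0.61. Sox11 led at E10.5, with 1094 ± 285, and Gap43 at E13.5, with 506 ± 153 (SD, n = 2).

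TTX, which blocks action potentials, called none of the 8 members tested, where it called 0.683% of all genes. By DESeq2 the count was also 0. At an unadjusted p under 0.05 there were 2, Klf7 and Klf9. Libraries of the same replicate number deviated together, with correlations of 0.43 to 0.60, so values are given by pair. Klf7 was at 663 without and 1114 with TTX in pair 1, at 567 and 893 in pair 2 and at 788 and 1016 in pair 3. Klf9 was at 125 and 85.0, at 126 and 83.6, and at 123 and 88.3. Without overlap between the groups, Klf7 was thus higher with TTX, as were 4.97% of all genes tested, and Klf9 lower, as were 5.58%. Gap43 was at 793 and 1247, at 1349 and 1964, and at 482 and 877, higher with TTX in 3 of 3 pairs, and Atf3 was at 264 and 335, at 751 and 1250, and at 171 and 218, also higher in 3 of 3. In the fit of all culture libraries the changes were 0.56 ± 0.20 for Klf7 (adjusted p = 0.427), -0.56 ± 0.26 for Klf9 (adjusted p = 0.634), 0.62 ± 0.41 for Gap43 (adjusted p = 0.832) and 0.59 ± 0.64 for Atf3 (adjusted p = 0.944). With the pair as a block in a fit of the 6 libraries alone, chosen after the data were seen, they were 0.58 ± 0.12 for Klf7 (adjusted p = 0.00592), -0.55 ± 0.21 for Klf9 (adjusted p = 0.114), 0.68 ± 0.12 for Gap43 (adjusted p = 0.00232) and 0.50 ± 0.13 for Atf3 (adjusted p = 0.0252), all short of 2-fold. The fibroblast markers summed to 307 without and 946 with TTX in pair 1, to 198 and 1041 in pair 2 and to 13.9 and 30.3 in pair 3, and their part in these differences was not tested. Klf6 was at 729 and 798, at 927 and 943, and at 831 and 881, higher by at most 1.09-fold in 3 of 3 pairs. Sprr1a was at 1360 and 1268, at 593 and 729, and at 446 and 419, and was higher with TTX in 1 of 3 pairs. The share of all genes with the same direction in 3 of 3 pairs was not counted, so the counts of pairs are description only.

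**Figure D4:**
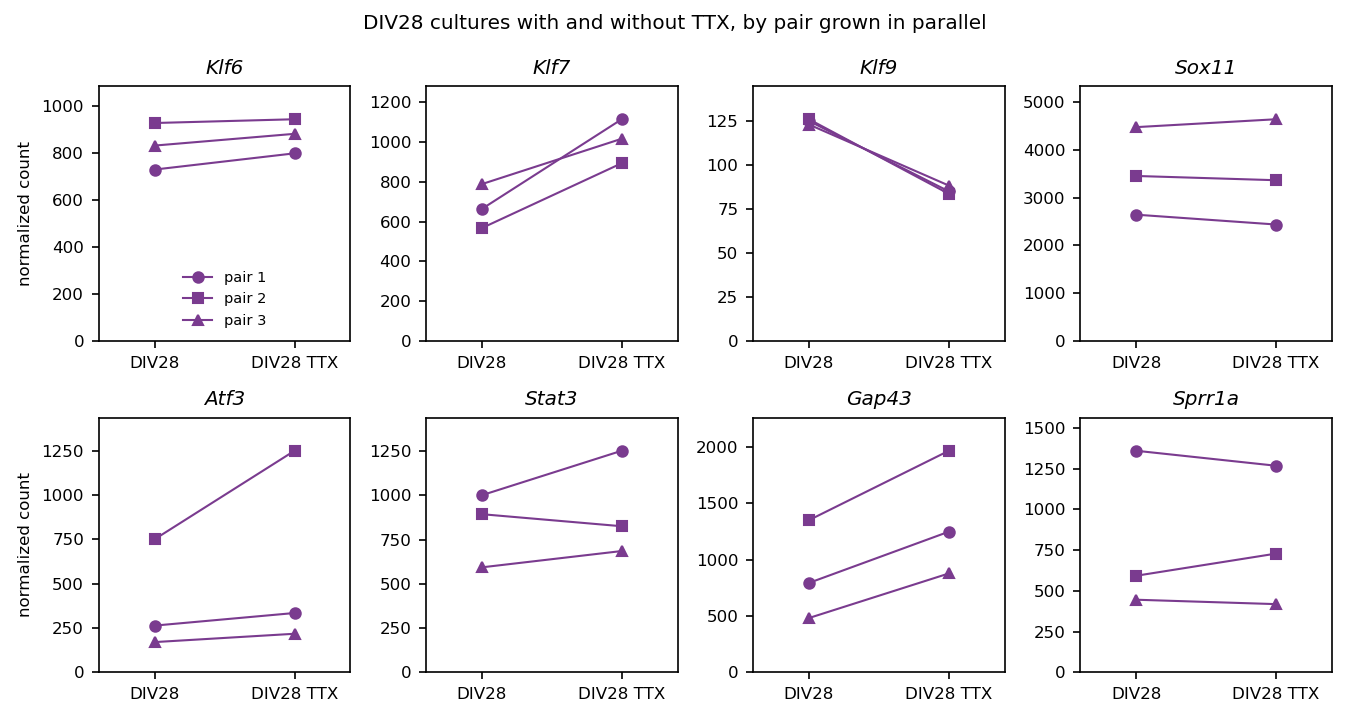
Normalized count (y axis, from 0) of 8 genes at DIV28 without and with TTX (x axis), with a line for each of the 3 pairs of the same replicate number. The pairing was taken from the data, and no sample title says that the pairs were grown in parallel. Klf6, Klf7, Gap43 and Atf3 were higher with TTX in 3 of 3 pairs and Klf9 was lower in 3 of 3. The share of all genes that do so was not counted.

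The start sites of most members were accessible throughout. In the ATAC-seq data a peak summit lay within 1000 bp of an annotated start of 8 of the 9 genes in both libraries of every group, and of all 9 at P4, DIV7, DIV28 and DIV28 with TTX. The share of all genes tested for RNA with such a peak was 82.0% to 85.3%. Klf4 therefore kept a start site peak in libraries where its RNA was near 0, among them both DIV0 libraries, where it ranked above 91.6% and 92.8% of the library's summits by -log10 p. The lists differ in length, from 99975 and 122238 summits at E10.5 to 197217 and 235590 at P21, and from 111130 and 93736 at DIV0 to 273452 and 178594 at DIV28, and a longer list of weak summits raises the rank of the same peak, so ranks describe each library and no change is read from them. Klf6 ranked above at least 98.5% of summits, Klf7 above at least 98.7%, and Stat3 above 94.9% and 98.4% at E10.5 and at least 99.3% in all later groups. The Sox11 peak ranked above 90.7% and 96.1% at E10.5 and 95.4% to 99.3% in all later groups. The Gap43 peak ranked above 63.4% and 72.6% at E10.5, 81.4% to 91.1% in tissue from E13.5 onward, 92.8% and 88.6% at DIV0 and 82.7% and 56.1% at DIV28.

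Sprr1a was the gene without a start site peak in some groups. No peak lay near it in either library at E10.5, E13.5, P56, 2 years or DIV0, and the peaks of P4, P13 and P21, found in 4 of 6 libraries, ranked above 19.2% to 43.6% of summits, with 1.96- to 2.92-fold enrichment over background, and only the P21 peak had a -log10 q of at least 2. At DIV7 the peak ranked above 86.5% and 80.6% of summits (8.17- and 9.27-fold), at DIV28 above 97.5% and 94.2% (12.6- and 8.86-fold) and with TTX above 95.5% and 82.0%. Atf3 ranked above 74.9% and 80.7% at E10.5, 84.6% to 96.9% at the other tissue ages and at DIV0, and 95.2% to 99.0% from DIV7 to DIV28, TTX included. Klf9 ranked above 76.0% and 84.3% at E10.5, 98.3% and 98.0% at P21, 89.3% and 86.7% at DIV0 and 99.2% and 97.8% at DIV28. Its fold enrichment was 12.3 and 10.3 at DIV0 and 12.2 and 8.1 at DIV28, and that of Atf3 was 11.2 and 12.3 and then 14.3 and 8.76, so for both the groups overlapped. Peaks were called in each library alone, and ranks are a description of 2 libraries a group.

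**Figure D5:**
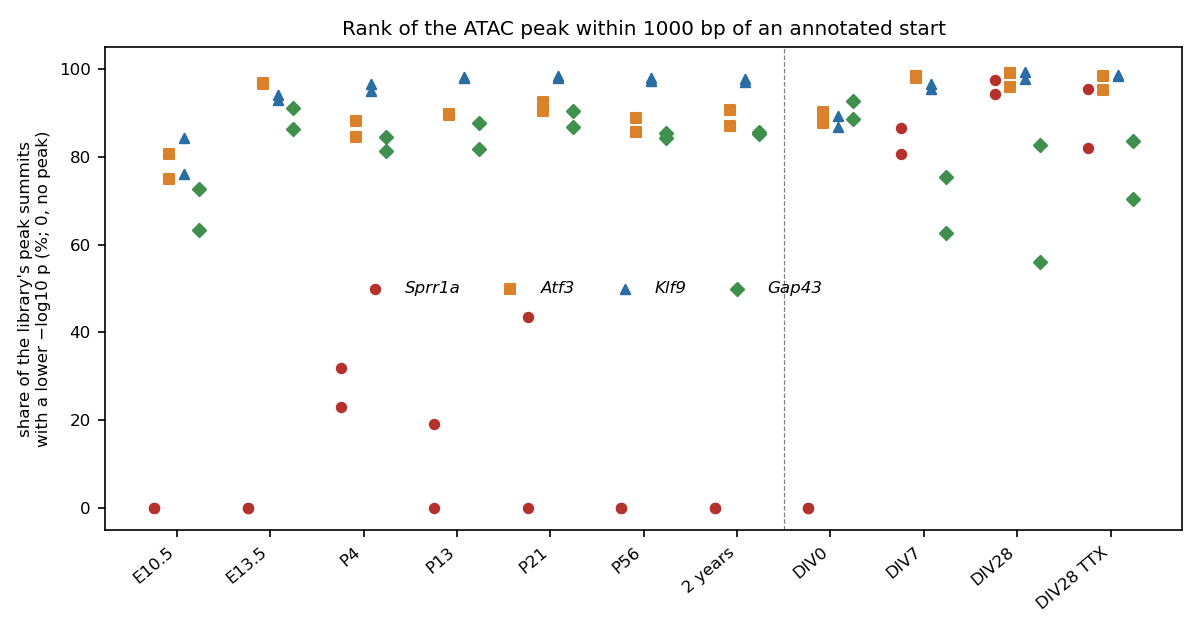
Rank of the strongest ATAC peak within 1000 bp of an annotated start (y axis, the share of the library's peak summits with a lower -log10 p, 0 where no peak was called) for 4 genes in each library, by group (x axis). Sprr1a had no peak at DIV0 and ranked above 97.5% and 94.2% at DIV28, in longer peak lists, while Gap43 ranked above 81.4% of summits or more in every tissue library from E13.5 onward.

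The promoters of Sprr1a, Atf3 and Klf9 are shown because, of the 8 members in the RefSeq table, only these hold letters of the motifs searched. The 250 bases before the RefSeq start (GRCm38.p6) were searched on both strands for TGANTCA, TGACGTNA (the CRE and ATF site) and TTCNNNGAA (the STAT site). TGANTCA takes in the AP-1 site bound by Fos and Jun, whose middle letter is G or C, but also other letters. The 3 patterns do not share a match in these promoters. Matches, in capitals, are of letters only and show no binding.
Sprr1a (chr3:92485882-92486131, minus strand): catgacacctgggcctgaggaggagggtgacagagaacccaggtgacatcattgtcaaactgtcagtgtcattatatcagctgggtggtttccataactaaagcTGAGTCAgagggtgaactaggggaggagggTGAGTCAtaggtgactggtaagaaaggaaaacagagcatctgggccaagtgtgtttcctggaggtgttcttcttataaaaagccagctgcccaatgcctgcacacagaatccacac
Atf3 (chr1:191183334-191183583, minus strand, a window inside the annotated span of the gene): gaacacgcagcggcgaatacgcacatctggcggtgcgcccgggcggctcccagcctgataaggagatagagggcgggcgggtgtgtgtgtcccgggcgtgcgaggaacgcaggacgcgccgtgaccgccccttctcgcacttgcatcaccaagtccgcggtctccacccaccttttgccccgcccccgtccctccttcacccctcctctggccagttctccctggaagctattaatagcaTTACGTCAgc
Klf9 (chr19:23140976-23141225, plus strand): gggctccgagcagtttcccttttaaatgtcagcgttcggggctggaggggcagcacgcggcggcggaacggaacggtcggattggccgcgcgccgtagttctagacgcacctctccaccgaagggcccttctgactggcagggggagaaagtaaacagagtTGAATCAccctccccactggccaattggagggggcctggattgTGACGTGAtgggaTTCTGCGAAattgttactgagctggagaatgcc

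Sprr1a has 2 matches to TGANTCA, which 6.75% of the 32851 promoters in the RefSeq table hold at least once. Atf3 has 1 match to TGACGTNA, read on the opposite strand, which 2.52% hold. Klf9 has 1 match to each pattern, and TTCNNNGAA is held by 7.02%. Its match to TGANTCA reads TGAATCA, which is not the AP-1 site, while both in Sprr1a read TGAGTCA. Klf4, Klf6, Klf7, Sox11 and Stat3 have none of the 3 in this window. Gap43 was not in the table. The 9 genes lie on 8 chromosomes in mm10, with Atf3 (chr1:191170296-191218039) and Klf7 (chr1:64029447-64122282) on the same one but far apart.

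The genes around the members were counted by list in the same tests. Of 20 injury-induced genes listed, 16 passed the filter on low counts in culture. Of these, 12 were higher and 1 lower at DIV28 than at DIV0, where 11.5% of all genes were called higher and 7.45% lower. The median log2 fold change was 4.14 against 0.06 over all genes. Both values include genes near 0 at DIV0, such as Cd44 and Vip. These were tested only through groups where they were high and could only be called higher. Cd44, a hyaluronan receptor, went from 2 counts over both DIV0 libraries to 1837, 2087 and 2039 normalized counts, and Vip, a neuropeptide, from 0 counts to 1226, 1371 and 771, at least 264-fold higher when DIV0 is set at 3 counts per library. Ecel1, a neuronal protease gene, was the 1 that fell (-1.89 ± 0.38, adjusted p = 0.00219). In tissue 3 of 18 were higher and 7 lower from E13.5 to P21 (29.8% and 26.3% of all genes), with a median of -0.88 against 0.15. Of those, Itga7, an integrin subunit, rose by 4.09 ± 0.31 (adjusted p = 1.91e-09) and Npy, a neuropeptide, fell by 5.12 ± 0.75 (adjusted p = 9.07e-06). The list was chosen with results of these data known.

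Of 19 growth cone genes, 11 were lower and 1 higher from E13.5 to P21 and 7 were not called, where 26.3% of all genes were lower and 29.8% higher, with a median of -2.03 against 0.15. Stmn1, a microtubule-destabilizing protein, was at 4023 and 3691 at E13.5 and 42.0, 98.4 and 77.4 at P21 (-5.58 ± 0.34, adjusted p = 1.43e-10), and Marcksl1, an actin-regulating substrate of protein kinase C, changed by -5.07 ± 0.22 (adjusted p = 4.62e-12). The gene that rose was Dclk1, a doublecortin-like kinase (1.77 ± 0.33, adjusted p = 0.000109), which was not called without E13.5 replicate 2. From DIV0 to DIV28, 2 of 18 were higher and 1 lower, where 11.5% of all genes were higher and 7.45% lower, with a median of -0.1. Stmn2 rose by 1.77 ± 0.38 (adjusted p = 0.00313) and Stmn3 by 2.63 ± 0.44 (adjusted p = 0.000677), whereas Dcx, the microtubule protein of migrating young neurons, went from 5416 and 5294 to 293, 240 and 499 (-3.94 ± 0.39, adjusted p = 2.02e-05). In tissue Dcx was at 2985 and 1543 at E13.5 and 269 to 344 at P21. The progenitor sums given above were lower over both courses, and their part was not tested.

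In the pathway of Stat3, of 14 genes of gp130, JAK and STAT signaling, 8 were higher and 1 lower from DIV0 to DIV28 (11.5% and 7.45% of all genes), a median of 1.23 against 0.06. Socs3, which Stat3 induces and which shuts the receptor off, was at 11.8 and 19.9 at DIV0 and 656, 659 and 453 at DIV28 (5.26 ± 0.36, adjusted p = 2.03e-06), while at P21 it was at 11.2, 7.03 and 4.14. Osmr, the oncostatin M receptor, had 0 counts at DIV0 and 48.7, 30.0 and 40.8 normalized counts at DIV28, at least 9.37-fold higher with DIV0 set at 3 counts per library. Cntfr, the receptor subunit for CNTF, fell (-1.46 ± 0.31, adjusted p = 0.00347), a call lost when any 1 library was left out. In tissue, 3 of 13 were higher and 3 lower from E13.5 to P21, no larger a share than that of all genes (29.8% and 26.3%), Tyk2 among the first (1.62 ± 0.21, adjusted p = 1.6e-06) and Osmr among the second (-5.87 ± 0.43, adjusted p = 1.26e-09).

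Other Krüppel-like factors did not move as one. In tissue 1 of 9 was higher and 3 were lower from E13.5 to P21, where 29.8% of all genes were higher and 26.3% lower. Klf15, a glucocorticoid target, was at 5.54 and 2.14 and then at 61.5, 59.1 and 31.8 (4.01 ± 0.57, adjusted p = 4.78e-06), and Klf2, known from vessel endothelium, fell by 5.43 ± 0.41 (adjusted p = 2.13e-09) alongside the endothelial markers. In culture 2 of 7 were higher and 1 lower from DIV0 to DIV28, where 11.5% of all genes were higher and 7.45% lower. Klf5 rose by 3.53 ± 0.57 (adjusted p = 0.000542), Klf10, a target of TGF-beta, by 1.98 ± 0.32 (adjusted p = 0.000491), and Klf3 changed by -2.15 ± 0.28 (adjusted p = 0.000121). Sox4, the closest relative of Sox11, fell in tissue from 911 and 1255 to 30.8, 43.6 and 30.4 (-4.80 ± 0.27, adjusted p = 5.74e-11). Of the 2 SoxC relatives tested edgeR called 0 in culture, where it called 19.0% of all genes, although both had an unadjusted p under 0.05. Sox4 was at 1119 and 1280 at DIV0 and 181, 459 and 261 at DIV28, without overlap (-1.96 ± 0.48, adjusted p = 0.00714), and DESeq2 called it (-2.0, adjusted p = 0.000235). Of 9 ATF and CREB relatives of Atf3 tested in culture, only Crem was called (2.00 ± 0.32, adjusted p = 0.000449), where 19.0% of all genes were. In tissue none of 10 was called by edgeR, where 56.1% of all genes were, with 4 under an unadjusted p of 0.05.

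Genes that respond to thyroid and glucocorticoid hormones, as Klf9 does, were counted next. In tissue 4 of 10 were higher and none lower from E13.5 to P21, where 29.8% of all genes were higher and 26.3% lower, with a median of 1.07 against 0.15, and in culture 3 of 9 were higher and none lower (0.70 against 0.06), where 11.5% of all genes were higher. Hr, a corepressor of the thyroid hormone receptor, was at 8.31 and 2.14 at E13.5 and 204, 181 and 188 at P21, and at 7.84 and 7.65 at DIV0 and 302, 421 and 176 at DIV28. Thrb, a thyroid hormone receptor, was at 6.46 and 2.14 at E13.5 and 280, 245 and 304 at P21, and went from 0 counts at DIV0 to 57.9, 79.8 and 99.2 at DIV28. Hr and Thrb were low at the start of both courses, which favors calls of a rise, and for Thrb no fall from DIV0 could have been called. Thrb was also the gene most like Klf9 over the 28 libraries (r = 0.975). At DIV28 none of the 10 was higher than at P21 and 5 were lower, as were 13.1% of all genes, in a comparison that shares its libraries with the others.

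Brakes on growth, genes whose loss is known to free axon growth, were mixed. In tissue 4 of 13 were higher and 2 lower from E13.5 to P21, near or below the shares of all genes (29.8% and 26.3%). Cacna2d2, a calcium channel subunit, rose by 2.52 ± 0.27 (adjusted p = 1.43e-07), and Rhoa, a small GTPase that collapses growth cones, fell by 3.15 ± 0.18 (adjusted p = 5.14e-11). In culture 1 of 13 was higher, Socs3, and 3 were lower, where 11.5% of all genes were higher and 7.45% lower. Epha4, a guidance receptor, was at 340 and 514 at DIV0 and 15.1, 6.46 and 13.1 at DIV28 (-5.26 ± 0.39, adjusted p = 3.31e-06). Under TTX Epha4 was at 72.2, 63.5 and 94.7 (2.79 ± 0.36, adjusted p = 0.0116). Of the early response genes, which neuronal activity induces, Btg2 was called lower under TTX (-1.73 ± 0.33), with an adjusted p of 0.0701, and Vip of the injury list too (-1.92 ± 0.36, adjusted p = 0.0722). In tissue 2 of 13 early response genes were higher and 4 lower from E13.5 to P21, where 29.8% of all genes were higher and 26.3% lower. The median was -0.78 against 0.15. Ier2 changed by -5.12 ± 0.37 (adjusted p = 1.06e-09) and Zfp36, an mRNA decay factor, by -2.31 ± 0.46 (adjusted p = 0.000186), a call lost without E13.5 replicate 2 (-2.02, adjusted p = 0.00418). Arc, a synaptic early response gene, was at 3.69 and 2.14 at E13.5 and 32.2, 46.4 and 26.2 at P21, and Junb, an AP-1 subunit, rose in culture from 5.23 and 4.59 to 89.2, 88.5 and 62.0 (4.02 ± 0.57, adjusted p = 0.000225).

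The members resembled one another to different degrees. Over the 28 libraries, which share their groups, Klf6 and Atf3 had r = 0.93 and were each among the 3 genes most like the other, and Gap43 was most like Basp1 (r = 0.95), a growth cone protein of the same kind, and Jun (r = 0.944), an AP-1 subunit. Sox11 was most like Btg1 (r = 0.961), an antiproliferative gene, Stat3 like Lmna (r = 0.924), the lamin A gene, and Lifr (r = 0.916), a receptor subunit of its own pathway, and Klf7 like H13 (r = 0.92), a signal peptide peptidase. The genes most like Sprr1a, Hao1 (r = 0.964), Vmn1r210 (r = 0.963) and Scnn1b (r = 0.959), are of other tissues. Klf9 had negative r to each member that fell in tissue, but not to the same degree. It was -0.71 to Sox11 and -0.54 to Gap43, and only -0.27 to Klf4, -0.2 to Atf3 and -0.19 to Klf6. To the other members it was -0.42 for Klf7, 0.32 for Stat3 and 0.19 for Sprr1a.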

How the data were processed

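The authors trimmed reads with Trim Galore and made estimated counts per gene with RSEM 1.3.0 over STAR 2.5.2b on mm10. These deposited expected counts, which divide reads that match several genes, were rounded to whole numbers. For ATAC-seq the authors aligned reads with BWA and called peaks in each library with MACS2 2.2.7.1, and the deposited peak files hold fold enrichment (a ratio) and -log10 p and q. The authors' effective gene lengths gave the values per kilobase, and their TPM and FPKM columns were not used.

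Genes needed a CPM of at least 5 in every library of any 1 group. Genes near 0 counts at DIV0, Sprr1a, Vip, Cd44, Osmr and Thrb among them, thus passed in culture only through other groups and could only be called higher than at DIV0. In tissue, calls of a rise were likewise favored for genes low at E13.5, Thrb, Hr, Klf15 and Arc among them. edgeR 4.0.16 (quasi-likelihood, TMM factors, R 4.3.3) was fitted to the 18 tissue libraries, the 10 culture libraries and the 25 without TTX, and tested on simulated data. Tissue libraries pool animals, and nothing in the sources used here says that the culture libraries are separate differentiations, so p-values measure the spread between these libraries. Exact intervals of count ratios cover counting error only, and intervals of 2 SE come from the spread between libraries. Same-numbered DIV28 and TTX libraries deviated together (correlations of 0.51, 0.43 and 0.60) and were treated as pairs from the data, while in tissue such correlations were -0.04 to 0.10. Members and lists were chosen with earlier results of these data known. List genes were named by size of change among those called without overlap, at most 2 in each direction, and the 3 genes most correlated with each member. Alternatives were median-of-ratios factors, no filter, DESeq2 1.42.0, an adjusted p limit of 0.05, only the compared libraries, a replicate block, another start in tissue and each library left out.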

Additional observations from a re-analysis of the deposited data

Results flagged for a closer look

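The difference between the change from DIV0 to DIV28 and the change from E13.5 to P21 passed the threshold in edgeR's quasi-likelihood test for 6 of the 9 members. The same rule called 41.7% of all genes tested, and 24.2% with the culture change higher. The Benjamini-Hochberg adjusted p-values were 3.77e-09 for Klf6, 1.02e-07 for Atf3, 3.26e-06 for Sox11, 3.62e-06 for Klf4, 7.33e-06 for Stat3 and 1.23e-05 for Gap43, each with the culture change higher. The Klf4 change in culture rests on 1 count over both DIV0 libraries, and the Atf3 change in tissue ends at 7 counts over the 3 P21 libraries. The systems differ in more than age, and at E13.5 the endothelial markers summed to 13255 and 24988 against 9 and 14 at DIV0.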

How the results depend on the processing

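Scaling by median-of-ratios moved the median log2 change of all genes by about 0.1, from 0.13 to 0.237 for E10.5 to E13.5. The counts of members called moved by over 1.5 times as follows. From P4 to P13 there were 4 with an adjusted p limit or without the filter, and from P13 to P21 there was 1 with the adjusted p limit, without the filter, with the replicate block or in only the compared libraries. From P56 to 2 years there was 1 without the filter, and without 1 library 0 to 1. From DIV7 to DIV28 there was 1 in only the compared libraries or without the deepest pair, and without 1 library 0 to 1. From E13.5 to P21 there were 3 with P4 as the start, where 17% of all genes were called. With each library left out in turn the other counts ran from 3 to 5 for E10.5 to E13.5, 2 to 3 for E13.5 to P4 and P4 to P13, 2 to 3 for DIV0 to DIV7 and 3 to 5 for DIV0 to DIV28. The starts at P4, the deepest pair and the block in 6 libraries were chosen after the data were seen. Signs turned for Stat3 from P4 to P21 (0.33), for Atf3 with TTX without TTX replicate 2 (-0.57) and for the difference in Klf7 with median-of-ratios factors or DESeq2 (-0.051), none of them called, and without 1 library that difference ran from -0.005 to 0.22. The causes were not tested. With the replicate block in the fit of all culture libraries, TTX changed Klf7 by 0.57 (adjusted p = 0.148), Klf9 by -0.56 (adjusted p = 0.323), Gap43 by 0.66 (adjusted p = 0.166) and Atf3 by 0.50 (adjusted p = 0.665), and it added the Atf3 call from DIV0 to DIV28 (4.13, adjusted p = 0.000441), that of Gap43 from P13 to P21 (-1.92, adjusted p = 0.00889) and that of Sox4 from DIV0 to DIV28 (-2.01, adjusted p = 0.000622), and changed no other call of a reported gene.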
